A study of Mus musculus with 10 samples.

Results

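The 41 genes described here are interferon-stimulated genes, genes that cells switch on when interferon binds its receptors. They were taken by name from a list of known response genes, and all 41 were found among the 39056 genes of the deposited count table. The list was chosen with earlier results of these data known. Values of the list beside those of all genes are therefore a description and not a test. The table covers 10 mouse libraries in 4 groups: liver tumours of MLK3-knockout mice (KO tumours, 3 libraries), liver tumours of wild-type mice (WT tumours, 3 libraries), liver of MLK3-knockout mice (KO liver, 2 libraries) and liver of wild-type mice (WT liver, 2 libraries). All mice were of the C57BL/6 strain and 11 months old. Mice of both tumour groups were males that had received the liver carcinogen diethylnitrosamine (DEN) as pups, 5 µg per g of body weight at 2 weeks of age, and then, after 1 week without treatment, the tumour promoter phenobarbital (PB) at 0.05% in drinking water up to sampling. Mice of both liver groups drank plain water. MLK3, encoded by Map3k11, is a mixed-lineage protein kinase upstream of the stress kinase JNK, and the series asked which gene expression in carcinogen-induced liver cancer depends on it. The sources used here do not describe the knockout allele or how tumour tissue was cut free of its surroundings. Every library of the tumour groups came from DEN/PB-treated mice and every liver library from mice on plain water. An effect of the tumour and an effect of DEN/PB therefore cannot be told apart. KO tumour library 2, described below, lay at liver level for the tumour markers.

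Type I interferons bind the receptor chains Ifnar1 and Ifnar2. The kinases that sit on those chains then activate Stat2, which joins Irf9 in a complex that binds the interferon-stimulated response element (ISRE) of target genes. Interferon gamma binds Ifngr1 and Ifngr2 and acts mainly through the gamma-activated sequence (GAS) and through the induced factor Irf1. In liver, hepatocytes, Kupffer cells and endothelial cells all respond, and the induced proteins are best known for blocking viruses and for destroying the vacuoles of intracellular parasites.

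The promoters of the genes were searched for the letters of these elements, and the stretches that hold them are given for members whose values matter below. Of the 41 genes, 29 had an entry in a RefSeq table of promoters (build GRCm38.p6, 250 bases before to 50 bases after each gene start) and 12 had none. Iigp1 and Ifi27 are among the 12, so their promoters were not searched. The ISRE core, spelled TTTC, any 2 bases, TTTC and searched on both strands, was present in 17 of the 29 genes (58.6%), against 3.99% of the 27025 genes of the whole table. The GAS letters, spelled TTC, any 3 bases, GAA, which match themselves on the other strand, were present in 9 of 29 genes (31.0%), against 9.55% of all genes. In the lines below, read 5′ to 3′ along the gene's own strand, capitals mark these letters (the ISRE core reads GAAA, any 2 bases, GAAA where it lies on the other strand), and overlapping matches run together. They lie at chr4:156200863-156200908 (Isg15, minus strand), chr5:120907518-120907557 (Oas1a, minus), chr3:142559987-142560026 (Gbp3, plus), chr19:34640773-34640825 (Ifit1, plus), chr11:53769912-53769944 (Irf1, plus), chr11:58199499-58199543 (Igtp, plus), chr11:58214890-58214934 (Irgm2, plus) and chr11:48992302-48992346 (Tgtp1, minus).
Isg15: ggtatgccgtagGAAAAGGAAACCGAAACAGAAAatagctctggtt
Oas1a: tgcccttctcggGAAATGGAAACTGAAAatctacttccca
Gbp3: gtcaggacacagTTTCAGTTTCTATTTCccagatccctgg
Ifit1: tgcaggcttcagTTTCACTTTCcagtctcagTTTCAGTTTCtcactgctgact
Irf1: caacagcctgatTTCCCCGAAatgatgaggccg
Igtp: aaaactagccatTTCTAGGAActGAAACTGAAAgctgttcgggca
Irgm2: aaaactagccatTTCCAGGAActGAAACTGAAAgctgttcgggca
Tgtp1: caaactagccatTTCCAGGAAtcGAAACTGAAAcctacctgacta
Isg15, Oas1a and Gbp3 carry overlapping ISRE cores, as do Irgm1 and Bst2, which are not shown. The first 3 were higher in WT tumours, while Irgm1 and Bst2 passed the test in no comparison. Oas1a also holds a GAS match in a separate stretch, at chr5:120907603-120907635. Ifit1 carries separate ones. Irf1 carries a GAS match alone. The GTPase genes Igtp, Irgm2 and Tgtp1 share an arrangement in which a GAS match is followed, after 2 bases, by an ISRE core. Ifi44 had no match of either kind in its window, which says only that these letters were not there. A match describes the sequence and is not a measured binding site.

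Library totals ran from 12408749 to 18081487 counts, and all levels below are CPM, counts divided by the library total as scaled by the trimmed mean of M values (TMM), the standard unit for libraries of unequal depth. Each read of the 3′ library kit stems from near the end of a transcript, so CPM was not divided by gene length. Replicate libraries differed by far more than sampling noise, with chi-square values of 39.8 to 94.9 per degree of freedom. Map3k11 averaged 8.70 ± 2.5 CPM in KO tumours, 12.0 ± 2.4 CPM in WT tumours (SD, n = 3 each), 5.59 ± 0.3 CPM in KO liver and 11.4 ± 5 CPM in WT liver (SD, n = 2 each). Because reads fall at the 3′ end and the deleted part of the gene is not known here, these levels do not check the genotype labels. Alb, the albumin of hepatocytes, reached at least 21390 CPM in every library. The tumour markers Afp and Gpc3 summed to 755 to 893 CPM in WT tumours, against 3.85 to 4.15 CPM in WT liver. In KO tumours the sum ran from 4.33 to 493 CPM, against 5.24 to 6.35 CPM in KO liver: KO tumour library 2 had 3.84 CPM of Afp and 0.488 CPM of Gpc3 and so lay at liver level for both markers. For KO tumours, the counts, the medians and the main genes are therefore also given without that library.

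Together the 41 genes made up 0.201%, 0.141% and 0.172% of all counts in the KO tumour libraries and 0.240%, 0.212% and 0.243% in the WT tumour libraries. In KO liver they made up 0.111% and 0.115%, and in WT liver 0.107% and 0.114%. Every tumour library thus had a larger share than every liver library, and every WT tumour library a larger share than every KO tumour library. Most genes were expressed at low levels. Of the 41, 3 averaged over 100 CPM across the 10 libraries, 21 lay between 10 and 100 CPM and 17 lay under 10 CPM. The highest was Iigp1, an immunity-related GTPase that attacks parasite vacuoles, at 505 CPM, which alone supplied 25.8% to 38.5% of the members' counts. Ifi27, a small hydrophobic mitochondrial protein, followed at 214 CPM and Bst2, the tetherin that holds budding viruses at the cell surface, at 166 CPM. The rest of the order ran from Irf1 at 91.0 CPM down to Mx1 at 0.646 CPM and Tgtp1 at 0.431 CPM. In all, 34 genes had counts in every library, and 7 were at 0 in at least 1 library: Oas1a and Xaf1 in 1 library, Oas2 in 2, Ifit2 in 3, Oas3 in 4, Mx1 in 5 and Tgtp1 in 7.

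**Figure D1:**
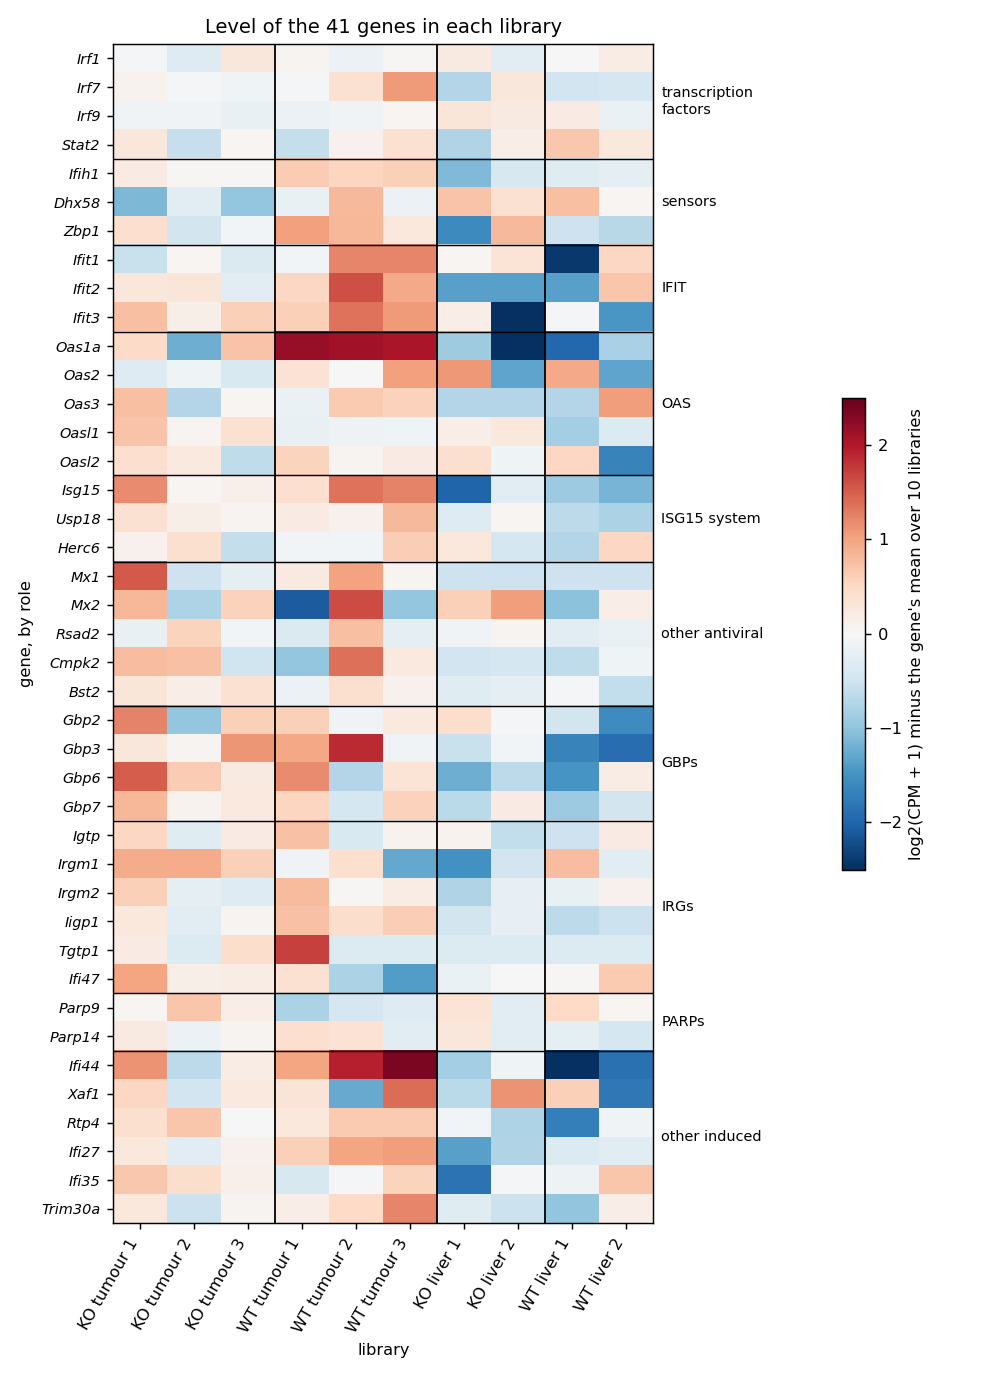
Level of each of the 41 genes (rows, by role) in each of the 10 libraries (columns), as log2(CPM + 1) minus the gene's mean over the libraries, with values beyond the ends of the colour scale drawn in its end colours. Red is above and blue below the gene's mean, and the Oas1a and Ifi44 rows are red in all 3 WT tumours and blue in both WT livers.

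Carcinogen-induced tumours of wild-type mice had higher levels of 6 interferon-stimulated genes than wild-type liver: Ifi44, Gbp3, Oas1a, Isg15, Iigp1 and Ifi27. None of the 41 was lower. The 6 included an OAS enzyme, a guanylate-binding protein and the immunity-related GTPase Iigp1, which was also the most abundant gene of the list. The transcription factors Irf1, Irf9 and Stat2 that carry the interferon signal did not pass the test. All 41 genes were tested among 15811, with edgeR's quasi-likelihood test and a Benjamini-Hochberg adjusted p under 0.05. Over all genes tested in this comparison, 3.64% were called higher and 4.7% lower. The median log2 fold change was 0.90 over the 41 genes and 0.09 over all genes tested, and 32 of the 41 values were positive. At an unadjusted p under 0.05 there were 13 of the 41, against 21.4% of all genes. DESeq2 called 9 of the 41 higher and 0 lower, against 8.4% and 7.32% of all genes to which it gave an adjusted p. With scaling by library totals alone, the median of all genes moved to 0.356, that of the 41 to 1.20, and 9 were called higher and 0 lower. The same scaling gave 920 genes higher (5.82%) and 496 lower (3.14%) over all genes, in place of 575 higher and 743 lower.

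Ifi44 (chr3:151730922-151749960, minus strand), a cytoplasmic protein of the antiviral response, showed 19.9, 39.7 and 53.0 CPM in WT tumours, against 0.188 and 1.89 CPM in WT liver, where the counts were 3 and 30. The fitted difference was 35.8-fold, a log2 fold change of 5.16 (SE 0.88, adjusted p = 0.0015), and it was called in all 16 alternatives. The lowest tumour library was above the higher liver library by a wide margin, although the liver libraries differed among themselves. Without WT liver library 2 the log2 fold change was 7.58, and without WT liver library 1 it was 4.30.

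Gbp3 (chr3:142560026-142573209, plus strand) encodes a guanylate-binding protein, a large GTPase that coats the membranes of pathogens. It stood at 6.77, 13.6 and 2.76 CPM in WT tumours, against 0.251 and 0.0630 CPM in WT liver, which are only 4 and 1 counts. The log2 fold change was 5.54 (SE 1.26, 46.7-fold, adjusted p = 0.012). The groups did not overlap, but the size of the difference rests on 5 liver reads, and the adjusted p was 0.083 without WT liver library 2 and 0.058 without WT tumour library 2.

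Oas1a (chr5:120896256-120907521, minus strand) senses double-stranded RNA and makes the oligoadenylates that activate RNase L. Its WT tumour libraries lay close together at 26.7, 25.1 and 24.2 CPM, against 0.565 and 2.46 CPM in WT liver. The log2 fold change was 4.06 (SE 1.16, 16.7-fold, adjusted p = 0.042). This call was near the threshold: it was lost on leaving out any of the 5 libraries of these 2 groups, or KO tumour library 1 or 3, with adjusted p from 0.051 to 0.18, and held in 8 of 16 alternatives.

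Isg15 (chr4:156199424-156200818, minus strand), a ubiquitin-like protein that is attached to other proteins during the response, had 32.8, 63.6 and 58.7 CPM in WT tumours, against 12.5 and 10.3 CPM in WT liver. It was 4.52-fold higher (log2 2.18, SE 0.53, adjusted p = 0.018). Every tumour library was above both liver libraries, and the call was lost without WT liver library 1 (adjusted p = 0.062), WT liver library 2 (0.097), WT tumour library 2 (0.059) or WT tumour library 3 (0.054).

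Iigp1 and Ifi27, the most abundant members, had smaller and tighter differences. Iigp1 had 799, 649 and 729.9 CPM in WT tumours, against 306 and 331 CPM in WT liver, 2.28-fold higher (log2 1.19, SE 0.23, adjusted p = 0.004), and was called in all 16 alternatives. Ifi27 (chr12:103434211-103440239, plus strand) had 287, 378 and 392 CPM in WT tumours, against 150.5 and 158 CPM in WT liver, also 2.28-fold higher (log2 1.19, SE 0.26, adjusted p = 0.0088). Neither gene overlapped between the groups. For Ifi27 the adjusted p was 0.068 without WT liver library 1 and 0.053 without WT liver library 2.

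**Figure D2:**
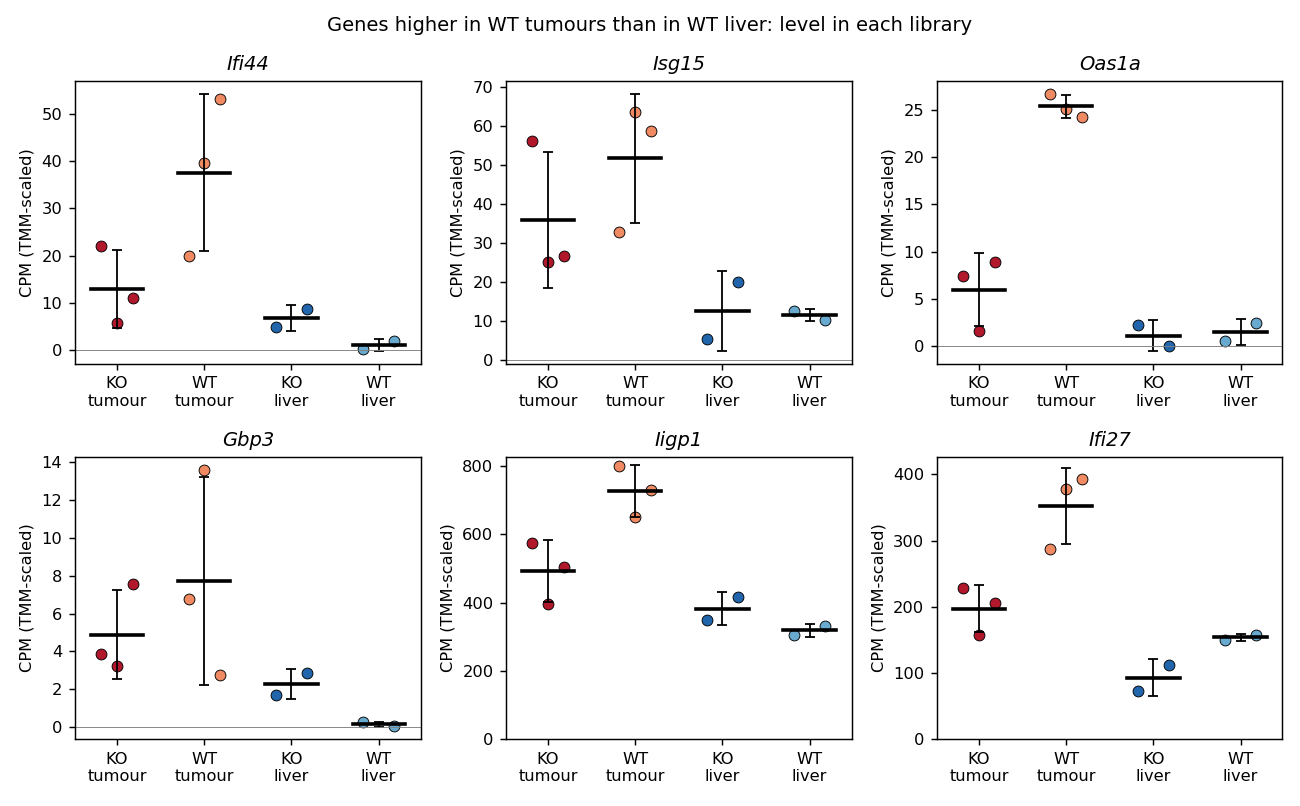
CPM of the 6 genes called in WT tumours, by group, with KO tumours, WT tumours, KO liver and WT liver from left to right. Points are libraries, bars the mean and the standard deviation, and in all 6 panels the lowest WT tumour library is above both WT liver libraries.

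Among the transcription factors, none passed the test in any comparison. Irf7, the factor that amplifies type I interferon genes, had 20.7, 19.1 and 18.1 CPM in KO tumours and 18.9, 25.7 and 42.1 CPM in WT tumours, and 11.4 and 23.9 CPM in KO liver and 13.8 and 14.3 CPM in WT liver. Its WT tumours were all above the WT livers, with a log2 fold change of 1.04 (SE 0.42, adjusted p = 0.16). Irf1, the main factor of the interferon gamma response, had 87.4, 71.9 and 109 CPM in KO tumours, 94.8, 81.9 and 92.7 CPM in WT tumours, 106 and 73.8 CPM in KO liver and 89.2 and 103 CPM in WT liver. The 4 groups overlapped and none of the 4 log2 fold changes between groups was beyond 0.10 in size. Irf9 had 64.7, 64.9 and 60.8 CPM in KO tumours, 62.6, 64.8 and 71.6 CPM in WT tumours, 85.5 and 80.8 CPM in KO liver and 80.3 and 62.0 CPM in WT liver. Stat2 had 32.8, 17.6 and 28.0 CPM in KO tumours, 17.6, 29.0 and 35.3 CPM in WT tumours, 15.6 and 30.4 CPM in KO liver and 43.8 and 32.7 CPM in WT liver. These partners in the ISRE-binding complex overlapped between WT tumours and WT liver, with log2 fold changes of -0.10 (SE 0.22) for Irf9 and -0.49 (SE 0.39) for Stat2. Irf7 shares annotated exon sequence with Phrf1 and Irf1 with Gm17334, both on the opposite strand, and Irf9 with Rnf31 on the same strand, so their counts may hold reads of those genes.

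The sensors of foreign nucleic acid were Ifih1, which binds long double-stranded RNA, its regulator Dhx58, and Zbp1, which binds Z-form nucleic acid and can start necroptosis. None of the 3 passed the test. Ifih1 had 28.7, 25.3 and 25.2 CPM in KO tumours, 39.1, 36.1 and 37.8 CPM in WT tumours, 11.0 and 18.5 CPM in KO liver and 19.9 and 20.9 CPM in WT liver. In both genotypes the tumours were all above the livers, with log2 fold changes of 0.89 (SE 0.31, adjusted p = 0.098) for WT tumours against WT liver and 0.84 (SE 0.31, adjusted p = 0.39) for KO tumours against KO liver. DESeq2 and scaling by library totals each called it in the wild type, with an adjusted p of 0.031, in a range of 0.031 to 0.31 over the alternatives. Without KO tumour library 2 the KO tumours were still all above KO liver (log2 0.88, adjusted p = 0.33). Zbp1 had a log2 fold change of 1.56 and Dhx58 of -0.25 in WT tumours against WT liver.

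The IFIT proteins bind foreign RNA ends and block their translation. No IFIT gene passed the test, although all 3 log2 fold changes of WT tumours against WT liver were positive, from 1.36 to 1.75. Some alternatives called an IFIT gene higher in WT tumours: Ifit1 without WT liver library 2, and Ifit3 without the filter on low counts or without either KO liver library. Ifit1 had 4.16, 6.91 and 4.90 CPM in KO tumours, 6.30, 16.7 and 16.7 CPM in WT tumours, 6.86 and 8.71 CPM in KO liver and 0.440 and 9.84 CPM in WT liver. Ifit3 had 18.8, 11.9 and 16.7 CPM in KO tumours, 16.7, 28.8 and 23.4 CPM in WT tumours, 12.2 and 0.283 CPM in KO liver and 10.4 and 3.28 CPM in WT liver. In both genes single liver libraries fell below 1 CPM while their partner library did not, so the liver libraries of a group differed widely. Ifit2 had counts in all 6 tumour libraries, at 2.16, 2.16 and 1.15 CPM in KO tumours and 2.71, 6.84 and 3.98 CPM in WT tumours, and in only 1 of 4 liver libraries, WT liver library 2 at 3.15 CPM. Against KO liver, where it had no count and 3 counts per library would correspond to 0.192 CPM, the KO tumours were at least 9.50-fold higher (adjusted p = 0.32; at least 8.62-fold and 0.27 without KO tumour library 2), and KO liver was at least 8.21-fold lower than WT liver (adjusted p = 0.6), a difference that rests on that single WT library. Ifit3 has near-identical copies, and the sources used here do not say how reads shared between copies were counted.

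Of the OAS family, Oas1a alone passed the test. The most abundant member was Oasl1, a relative without enzyme activity, with 16.6, 10.3 and 13.0 CPM in KO tumours, 8.49, 8.81 and 8.91 CPM in WT tumours, 11.0 and 12.0 CPM in KO liver and 4.96 and 7.50 CPM in WT liver. Its KO tumours were all above its WT tumours, but the log2 fold change of 0.61 (SE 0.43, adjusted p = 0.59) did not pass, nor did that of 0.77 without KO tumour library 2 (0.62). Oas2, Oas3 and Oasl2 stayed at or under 6.35 CPM in all libraries, with log2 fold changes of 0.45, -0.021 and 0.60 in WT tumours against WT liver. Oas1a has several near-identical neighbours, so reads may be split among them.

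In the ISG15 system, Usp18 removes ISG15 from its targets and restrains the type I receptor, and Herc6 attaches ISG15 in mice. Usp18 had a log2 fold change of 1.23 (SE 0.41, adjusted p = 0.085) in WT tumours, all 3 of which were above WT liver, and Herc6 of 0.19 (adjusted p = 0.92). Usp18 was called by DESeq2 (adjusted p = 0.019) and with scaling by library totals (0.037), in a range of 0.019 to 0.3 over the alternatives. None of the other antiviral effectors passed. Bst2 had 199.6, 182 and 213 CPM in KO tumours, 147, 214 and 176 CPM in WT tumours, 132 and 137 CPM in KO liver and 158 and 106 CPM in WT liver. Its KO tumours were all above KO liver with a log2 fold change of 0.56 (SE 0.24, adjusted p = 0.47; 0.62 and 0.34 without KO tumour library 2), while WT tumours and WT liver overlapped. Rsad2, the enzyme viperin that makes a chain-terminating nucleotide, and Cmpk2, a mitochondrial nucleotide kinase, had log2 fold changes of 0.38 and 1.05 in WT tumours. The dynamin-like GTPase Mx1 had no count in any liver library and 41, 0 and 3 counts in KO tumours and 13, 26 and 8 counts in WT tumours, at least 5.86-fold above KO liver (adjusted p = 0.54) and at least 5.44-fold above WT liver (adjusted p = 0.26). Without KO tumour library 2 the bound against KO liver was 8.79-fold (adjusted p = 0.40). Mx2, annotated as a polymorphic pseudogene, ran from 0.104 to 13.5 CPM with WT tumour libraries at both ends.

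Of the guanylate-binding proteins, Gbp3 passed the test and the other 3 had positive log2 fold changes in WT tumours against WT liver, of 1.63 for Gbp2, 0.96 for Gbp6 and 1.01 for Gbp7. Gbp7, the most abundant, had 52.7, 31.1 and 34.7 CPM in KO tumours, 42.9, 21.5 and 44.4 CPM in WT tumours, 17.9 and 34.0 CPM in KO liver and 15.1 and 20.9 CPM in WT liver. Its WT tumours were all above WT liver, but the adjusted p was 0.15. Gbp2 had 10.5, 1.47 and 6.34 CPM in KO tumours, 6.35, 3.57 and 4.75 CPM in WT tumours, 5.60 and 3.68 CPM in KO liver and 2.51 and 0.630 CPM in WT liver. KO tumour library 1 was the highest of all libraries and KO tumour library 2 lower than every WT tumour, so the KO tumours overlapped with every other group.

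The immunity-related GTPases comprise the effectors Iigp1, Tgtp1 and Ifi47 and the regulators Igtp, Irgm1 and Irgm2. Apart from Iigp1 none passed the test. The log2 fold changes of WT tumours against WT liver were 0.35 for Igtp and 0.42 for Irgm2, and negative for Irgm1 (-0.57) and Ifi47 (-0.80). Without WT tumour library 1, Ifi47 passed as lower in WT tumours than WT liver and as higher in KO than in WT tumours. Igtp and Irgm2 overlap on the same strand, so their counts cannot be fully separated. Tgtp1 had 60 counts in WT tumour library 1 and none in the other 2 WT tumour libraries.

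The ADP-ribosyltransferase relatives Parp9 and Parp14 did not pass the test. Parp9 alone among the 41 genes had WT tumour libraries that were all below WT liver, at 11.3, 14.8 and 16.0 CPM in WT tumours against 28.9 and 21.1 CPM in WT liver (log2 -0.83, SE 0.35, adjusted p = 0.18). Its KO tumours, at 21.1, 33.4 and 23.1 CPM, were all above its WT tumours (log2 0.88, SE 0.32, adjusted p = 0.18; 0.65 and 0.54 without KO tumour library 2), and KO liver had 26.0 and 16.7 CPM. Parp9 overlaps its partner Dtx3l on the opposite strand. Parp14 had 35.0, 26.9 and 31.6 CPM in KO tumours, 40.5, 38.6 and 24.7 CPM in WT tumours, 36.9 and 24.3 CPM in KO liver and 25.6 and 21.7 CPM in WT liver, and the groups overlapped. Of the remaining genes, Rtp4 and Trim30a had positive log2 fold changes of 1.26 (adjusted p = 0.095) and 1.04 (adjusted p = 0.2) in WT tumours, while Xaf1 (0.90) and Ifi35 (-0.26) overlapped between these groups. All WT tumours were above WT liver for Rtp4, and for Trim30a the lowest WT tumour and the higher WT liver library were level at 20.9 CPM. Rtp4 passed with DESeq2 (adjusted p = 0.05 after rounding), with scaling by library totals (0.046), without the filter on low counts (0.0059) and without WT liver library 2 (0.0058), in a range of 0.0058 to 0.48.

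Counting groups that did not overlap, 17 of the 41 genes had all WT tumours above WT liver and 1 had all below, while over all genes tested 19.6% lay above and 17.6% below.

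**Figure D3:**
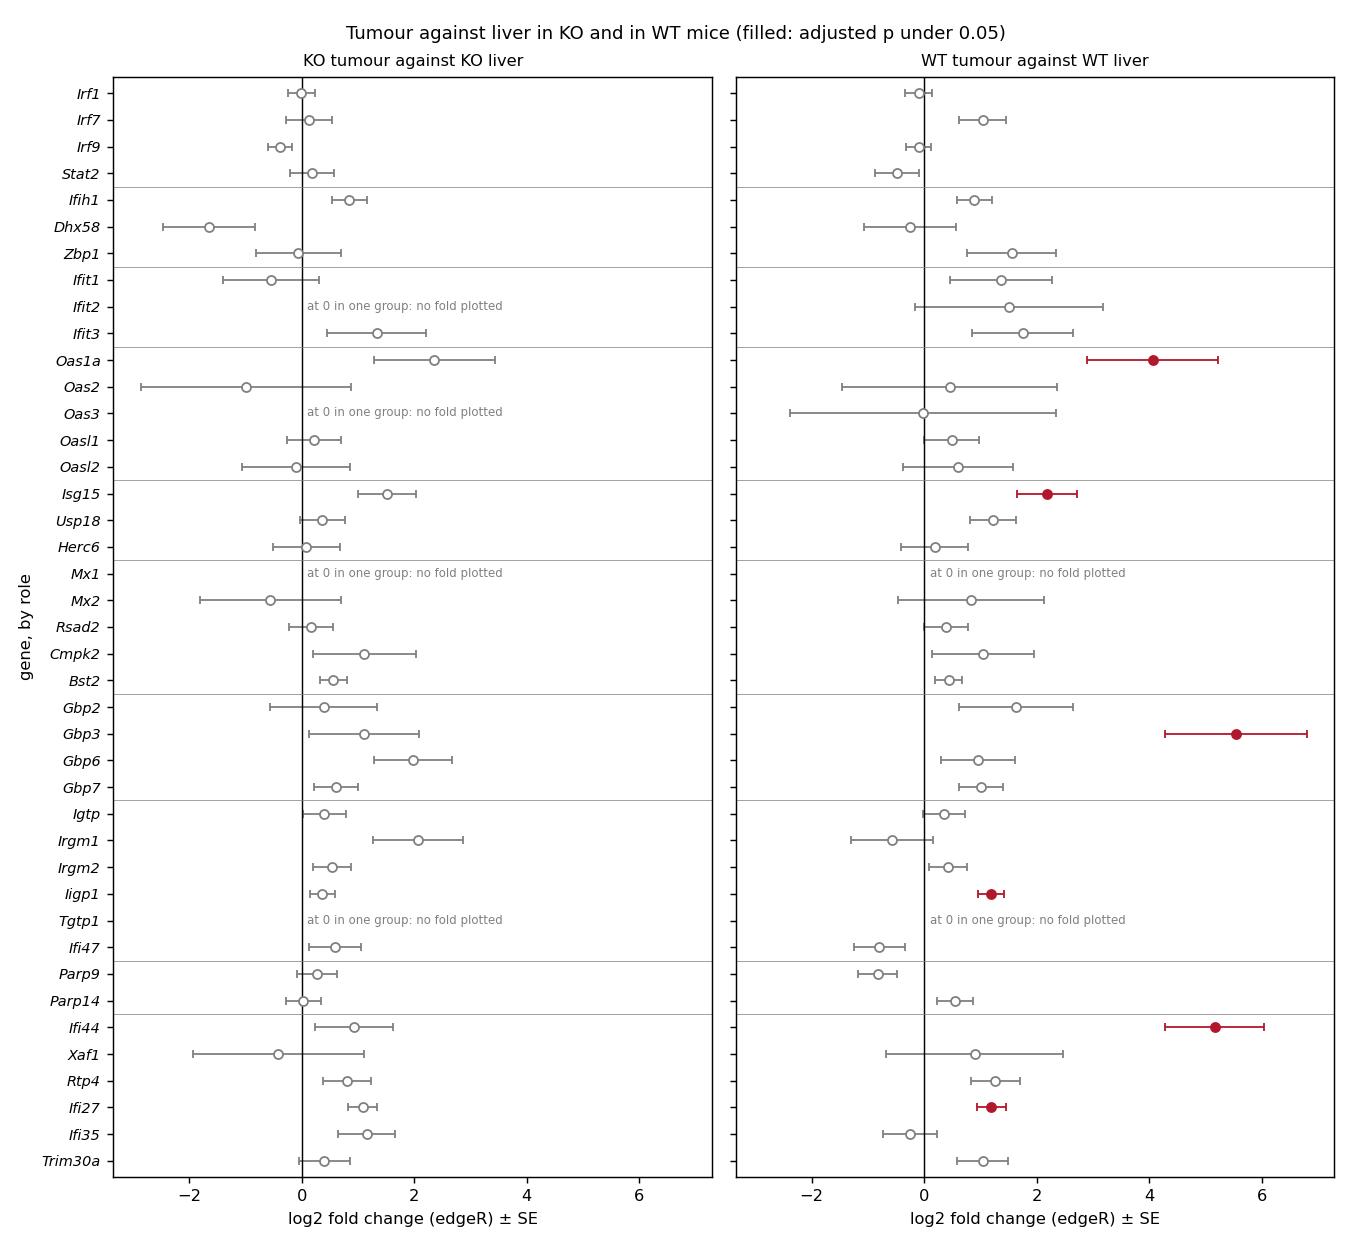
Log2 fold change with its standard error for each of the 41 genes, by role, in KO tumours against KO liver and in WT tumours against WT liver. Filled points passed the test, 0 in the knockout and 6 in the wild type, and genes without a count in a group (4 in the knockout, 2 in the wild type) have no point.

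In MLK3-knockout mice no interferon-stimulated gene passed the test between tumour and liver. Over all genes tested, 0.0759% were called higher and 0% lower, so few genes of any kind passed in this comparison. The median log2 fold change was 0.40 over the 41 genes and 0.056 over all genes, with 32 of 41 positive. At an unadjusted p under 0.05 there were 9 of the 41, against 9.61% of all genes. DESeq2 called 2 higher, Ifi27 and Ifit2, against 2.61% of all genes to which it gave an adjusted p. Not overlapping were 12 genes with all KO tumours above KO liver and 2 with all below, against 14.3% and 12.4% of all genes. Ifi27 had the smallest p, at 228, 158 and 206 CPM in KO tumours against 73.4 and 113 CPM in KO liver (log2 1.08, SE 0.26, adjusted p = 0.15). Isg15 had 56.1, 25.2 and 26.7 CPM in KO tumours against 5.32 and 19.9 CPM in KO liver (log2 1.52, SE 0.52, adjusted p = 0.34). Both genes had every KO tumour above both KO livers. Ifi44 had 22.0, 5.72 and 10.9 CPM in KO tumours against 4.86 and 8.71 CPM in KO liver, and Gbp3 had 3.85, 3.21 and 7.57 CPM against 1.72 and 2.83 CPM. Ifi44 overlapped between the groups through KO tumour library 2 and Gbp3 did not overlap, with log2 fold changes of 0.93 and 1.10. Oas1a had 7.47, 1.60 and 8.94 CPM in KO tumours against 2.29 and 0 CPM in KO liver, and Iigp1 had 574, 395 and 505 CPM against 348 and 417 CPM. Both overlapped, with log2 fold changes of 2.35 and 0.36. These 6 genes were picked because they passed in WT tumours, so they do not stand for the list in the knockout. Irgm1 (log2 2.07, adjusted p = 0.41), Gbp6 (1.98, 0.36) and Ifi35 (1.15, 0.47) also had every KO tumour above both KO livers. Their log2 fold changes in WT tumours against WT liver were -0.57, 0.96 and -0.26. The 2 genes with all KO tumours below were Irf9 (log2 -0.39, adjusted p = 0.58) and Dhx58 (-1.65, 0.54). Without KO tumour library 2, the library at liver level for Afp and Gpc3, 1 gene passed, Ifi27 with a log2 fold change of 1.22 and an adjusted p of 0.028, and the median over the 41 genes was 0.61. Over all genes 1.21% were then called higher and 0.083% lower. Not overlapping were then 24 genes above and 3 below, against 23.7% and 19.8% of all genes, with Ifi44 (log2 1.28, adjusted p = 0.52), Oas1a (2.81, 0.31) and Iigp1 (0.50, 0.37) among those above. Without KO liver library 1, also 1 gene passed, Ifit3, with 0.0754% of all genes called higher.

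KO tumour libraries differed along the whole list. Library 1 was the highest of the 3 in 27 of the 41 genes (65.9%, against 32.9% of all genes tested) and library 2 the lowest in 23 (56.1%, against 33.0%). The summed level of the 41 genes was 1925, 1419 and 1641 CPM in KO tumours and 2077, 2097 and 2217 CPM in WT tumours, and 1142 and 1277 CPM in KO liver and 1185 and 1250 CPM in WT liver. Leaving out Iigp1 it was 1351, 1023 and 1136 CPM in KO tumours and 1278, 1448 and 1487 CPM in WT tumours, and then the groups overlapped.

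Between tumours of both genotypes, 1 gene of the list passed the test: Ifi27 was 1.78-fold lower in KO tumours. It had 228, 158 and 206 CPM in KO tumours against 287, 378 and 392 CPM in WT tumours (log2 -0.84, SE 0.23, adjusted p = 0.047). No KO tumour library reached any WT tumour library, but the call was at the edge: it was lost without WT tumour library 2 (adjusted p = 0.16) or 3 (0.18) and without KO tumour library 1 (0.051), 2 (0.18) or 3 (0.13), and when only the 6 tumour libraries were fitted (0.072). Over all genes tested, 3.25% were called higher and 1.27% lower in KO tumours. The median log2 fold change was −0.21 over the 41 genes and −0.028 over all genes, with 11 of 41 positive. At an unadjusted p under 0.05 there were 6, against 14.9% of all genes. Not overlapping were 3 genes above (Oasl1, Irgm1 and Parp9) and 7 below (Ifih1, Dhx58, Ifit2, Oas1a, Oas2, Iigp1 and Ifi27), against 12.2% and 10.9% of all genes. Without KO tumour library 2 no gene of the list passed, against 2.2% of all genes called higher and 0.728% lower. The median was then −0.28 over the 41 genes with 15 positive, and 3 genes lay above and 8 below without overlap, against 16.5% and 15.1% of all genes.

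Other genes that were high in WT tumours had lower values in KO tumours without passing. They were picked because they passed as higher in the same WT tumour libraries, so lower values in KO tumours can follow in part from that choice. Oas1a had 7.47, 1.60 and 8.94 CPM in KO tumours against 26.7, 25.1 and 24.2 CPM in WT tumours (log2 -2.08, SE 0.89, adjusted p = 0.27). Ifi44 had 22.0, 5.72 and 10.9 CPM against 19.9, 39.7 and 53.0 CPM (log2 -1.54, SE 0.61, adjusted p = 0.22). Iigp1 had 574, 395 and 505 CPM against 799, 649 and 729.9 CPM (log2 -0.56, SE 0.20, adjusted p = 0.15). Oas1a and Iigp1 did not overlap between the genotypes, and Ifi44 did, since KO tumour library 1 exceeded WT tumour library 1. Isg15 (log2 -0.52) and Gbp3 (log2 -0.66) overlapped as well. Iigp1 passed with DESeq2 (adjusted p = 0.033), which called 2 lower in all, against 2.67% of all genes to which it gave an adjusted p. Without KO tumour library 2, the log2 fold changes were −1.63 for Oas1a (adjusted p = 0.57), −1.19 for Ifi44 (0.54) and −0.43 for Iigp1 (0.40). In the other direction Ifi47 had a log2 fold change of 0.92 (adjusted p = 0.3) and Irgm1 of 1.12 (adjusted p = 0.48). Of 7 hepatocyte markers, the abundant Alb (log2 -1.23, adjusted p = 0.0014) and Apoa1 (log2 -1.48, adjusted p = 0.00048) were lower in KO tumours, also without KO tumour library 2 (adjusted p = 0.004 and 0.0019). The other 5 did not pass, 4 of the 7 log2 fold changes were positive and their median was 0.005. The summed level, which these abundant genes dominate, was 39700 to 48700 CPM in KO tumours and 76100 to 99600 CPM in WT tumours. The part of these cells in the differences above was not tested.

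**Figure D4:**
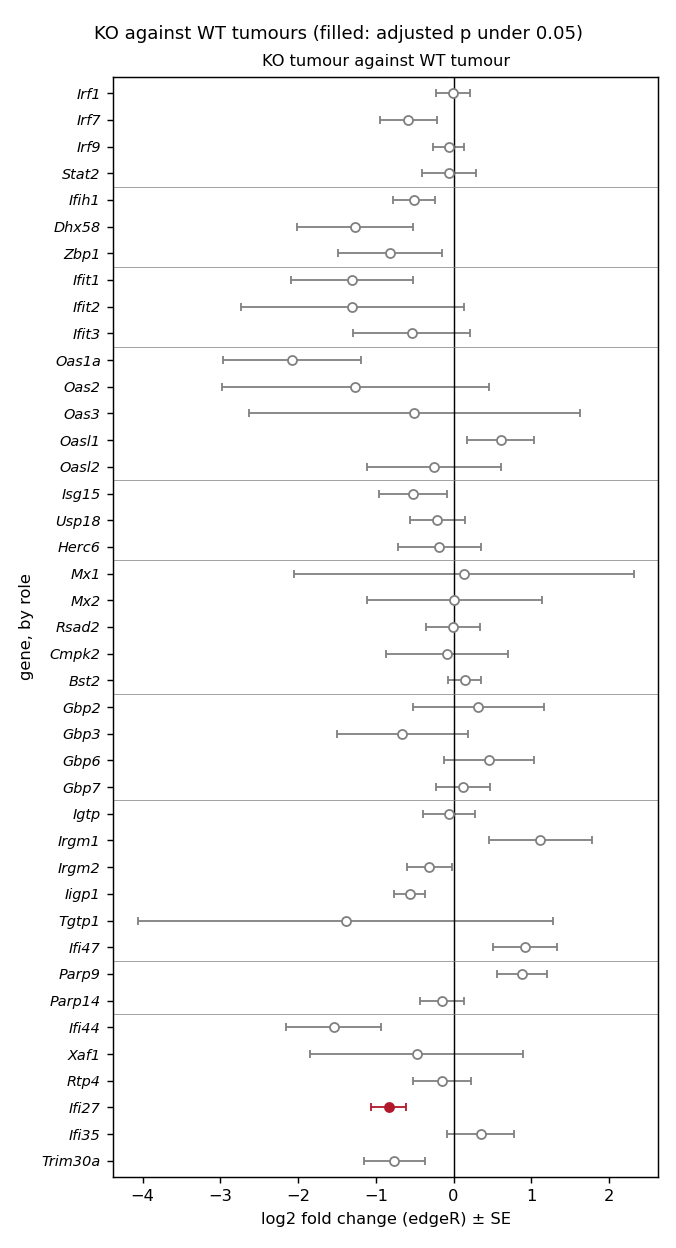
Log2 fold change with its standard error of KO tumours against WT tumours for each of the 41 genes, by role. The filled point is Ifi27, the only gene that passed the test, and 30 of the 41 points lie below 0.

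In liver without carcinogen, no interferon-stimulated gene passed the test between KO liver and WT liver, in a comparison where 0% of all genes were called higher and 0.00632% lower. DESeq2 called none of the 40 to which it gave an adjusted p, against 0.636% of all genes higher and 0.807% lower. At an unadjusted p under 0.05 there were 4 of the 41, against 7.28% of all genes. The median log2 fold change was 0.025 over the 41 genes and 0 over all genes, 21 of 41 were positive, and with bounds in place of fitted values for genes without counts in a group the median over 39 genes was 0.13. Not overlapping were 9 genes above and 6 below, against 15.5% and 15.5% of all genes. The largest positive values were those of Gbp3 (log2 3.79, SE 1.22, adjusted p = 0.54) and Ifi44 (log2 2.69, SE 0.83, adjusted p = 0.53). Ifi44 had 4.86 and 8.71 CPM in KO liver against 0.188 and 1.89 CPM in WT liver. Gbp3 had 1.72 and 2.83 CPM against 0.251 and 0.0630 CPM. Ifi27 had the opposite sign, at 73.4 and 113 CPM in KO liver against 150.5 and 158 CPM in WT liver (log2 -0.73, SE 0.28, adjusted p = 0.63). In all 3 genes both KO livers lay on the same side of both WT livers.

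Whether the tumour-liver difference itself differed between the genotypes was tested by the interaction, the knockout difference minus the wild-type difference. No gene of the list passed, while 1.22% of all genes were called higher and 0.367% lower. The median was −0.40 over the 41 genes and 0.028 over all genes, and 14 of 41 were positive. At an unadjusted p under 0.05 there were 7, against 12.7% of all genes. DESeq2 called 2 lower, Gbp3 and Ifi44, against 1.87% of all genes to which it gave an adjusted p. Ifi44 came closest, with an interaction of -4.24 (SE 1.03, adjusted p = 0.055). It was past the threshold without WT liver library 2 (adjusted p = 0.0066), KO liver library 1 (0.045) or KO tumour library 1 (0.035), in a range of 3.4e-07 to 0.15 over the alternatives. Ifit1 also passed, as lower, without WT liver library 2. Without KO tumour library 2 the interaction of Ifi44 had an adjusted p of 0.099, no gene of the list passed and the median over the list was −0.36. Gbp3 had an interaction of -4.44 (SE 1.46, adjusted p = 0.19) and Iigp1 of -0.83 (SE 0.31, adjusted p = 0.28), while Ifi27 had -0.11 (SE 0.35, adjusted p = 0.98). In the other direction, Irgm1 had 2.64 (SE 1.06, adjusted p = 0.31), Ifi47 1.39 (SE 0.65, 0.39) and Parp9 1.10 (SE 0.51, 0.38). These 3 values were also at an unadjusted p under 0.05. So was the positive value of Ifit2, which had no count in KO liver (adjusted p = 0.37). The interaction and the 4 comparisons of groups share libraries, each group entering 2 of the 4, so the same WT liver libraries enter both the wild-type tumour difference and the KO liver difference of Ifi44 and Gbp3. That Ifi44 passed in the wild type and not in the knockout thus does not show that the genotypes differ.

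The interferons themselves were almost without reads. Of 21 interferon genes, 19 had no count in any library. How reads shared between similar genes were counted is not stated, so 0 counts need not mean that no transcript was present. Ifng had 32 counts in all, 24 in WT tumour library 1 and 8 in WT liver library 1, and Ifnk had 44 counts in WT tumour libraries 2 and 3. The limit that 0 counts allow, 3 counts, corresponds to 0.166 to 0.242 CPM per library. Of the receptor genes, 6 were tested, and 2 were called in WT tumours, both above WT liver, where 3.64% of all genes were called higher. Ifngr1, the ligand-binding chain of the interferon gamma receptor, had 60.9, 35.4 and 71.4 CPM in KO tumours and 124, 132 and 151 CPM in WT tumours, and 22.5 and 20.2 CPM in KO liver and 42.5 and 35.6 CPM in WT liver. It was 3.48-fold above WT liver in WT tumours (log2 1.80, SE 0.30, adjusted p = 0.0012) and 2.43-fold lower in KO tumours than in WT tumours (log2 -1.28, SE 0.25, adjusted p = 0.0067). Both calls held in all 16 alternatives, without KO tumour library 2 among them (adjusted p = 0.021 for the KO against WT tumours). KO tumours lay above KO liver in all libraries as well, but with an adjusted p of 0.1 (log2 1.39, SE 0.29). Both KO livers also lay below both WT livers for Ifngr1. No receptor gene passed between KO and WT liver or in the interaction. Il10rb, a chain shared by the receptors of interferon lambda and interleukin 10, had 15.5, 15.4 and 11.3 CPM in WT tumours against 2.32 and 2.33 CPM in WT liver (log2 2.59, SE 0.53, adjusted p = 0.006). The type I receptor chains Ifnar1 (log2 0.65) and Ifnar2 (log2 -0.15) did not pass between WT tumours and WT liver.

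**Figure D5:**
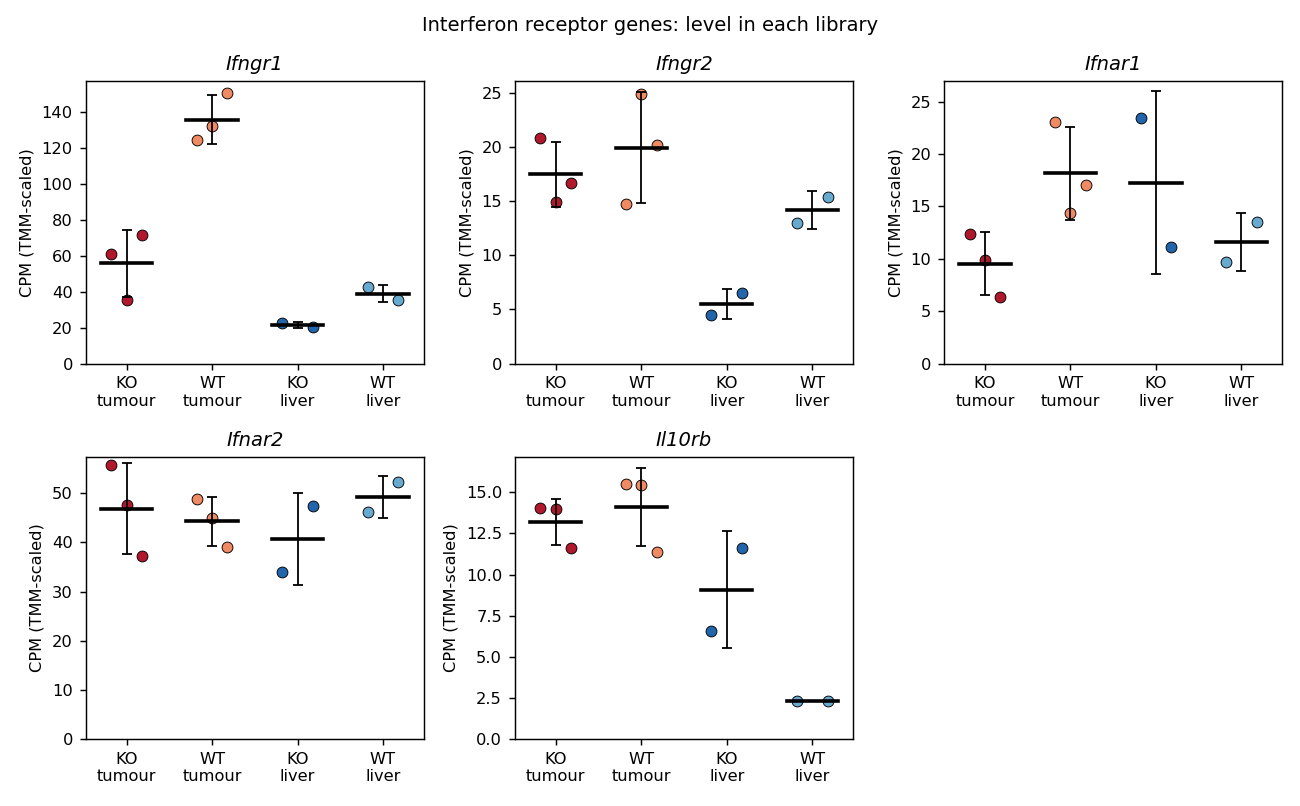
CPM of 5 receptor genes by group, with KO tumours, WT tumours, KO liver and WT liver from left to right. Points are libraries and bars the mean and standard deviation, and for Ifngr1 the 3 WT tumour libraries, at 124 to 151 CPM, are above every other library.

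In WT tumours against WT liver, 3.64% of all genes were called higher and 4.7% lower. Of the genes that induce or transmit the signal, 16 of 17 were tested and 1 was called, and was lower in WT tumours: Mavs, the mitochondrial adaptor of the RNA sensors (log2 -1.60, SE 0.44, adjusted p = 0.033). Mavs lost the call without WT liver library 1 (adjusted p = 0.33), WT tumour library 1 (0.06) or WT tumour library 3 (0.097). Of 12 negative regulators 11 were tested, and 2 were higher in WT tumours: Pias1, a SUMO ligase that restrains interferon signalling (log2 1.43, SE 0.40, adjusted p = 0.035), and Tnfaip3, a deubiquitinase that restrains inflammatory signalling (177, 133 and 118 counts in WT tumours against 5 and 0 counts in WT liver, adjusted p = 0.037). Each of these calls was lost on leaving out single WT libraries, with adjusted p up to 0.24 for Pias1 (without WT liver library 1) and 0.14 for Tnfaip3 (without WT liver library 2).

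Of 55 further interferon-stimulated genes that are not on the list of 41, 54 were tested. In WT tumours against WT liver 4 were higher and 1 lower, against 3.64% and 4.7% of all genes tested. Ifi204, a DNA sensor of the nucleus, had 30.7, 31.9 and 26.7 CPM in WT tumours against 8.35 and 8.01 CPM in WT liver (log2 1.86, SE 0.38, adjusted p = 0.006), a call that held in all 16 alternatives. Ifi27l2a, a relative of Ifi27, had 15.8, 15.0 and 14.4 CPM against 1.26 and 3.09 CPM (log2 2.79, adjusted p = 0.02, 0.14 without WT liver library 1). Gbp9, from the family of Gbp3, had 67, 61 and 95 counts in WT tumours and none in WT liver, at least 24.8-fold higher (adjusted p = 0.012, 0.069 without WT liver library 1 and 0.068 without library 2). Lgals3bp, a secreted glycoprotein, was higher (log2 1.49, adjusted p = 0.011, 0.12 without WT liver library 1), and Dtx3l, the ubiquitin ligase that partners Parp9, was lower (log2 -0.86, adjusted p = 0.031, up to 0.24 on leaving out single WT libraries). None of the 54 passed with edgeR between KO tumours and KO liver, KO and WT liver or KO and WT tumours.

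Marker levels were summed for immune cells that make interferon or respond to it. Of all genes, 3.64% were called higher and 4.7% lower in WT tumours against WT liver, and 3.25% and 1.27% in KO against WT tumours. The 13 macrophage markers summed to 680 to 1040 CPM in KO tumours and 708 to 1090 CPM in WT tumours, and to 496 to 789 CPM in KO liver and 496 to 526 CPM in WT liver, with no marker at 0 in any group. Of the 13, Cd5l (log2 1.50, adjusted p = 0.0028) and Lyz2 (log2 1.89, adjusted p = 0.017) exceeded their WT liver level in WT tumours, and Cd163 was lower (log2 -4.60, adjusted p = 0.0041). In KO against WT tumours, Marco (log2 2.83, adjusted p = 0.0025) and Cd163 (log2 4.52, adjusted p = 0.0054) were higher, also without KO tumour library 2 (adjusted p = 0.0059 and 0.018). The 13 T and NK cell markers summed to 8.09 to 41.9 CPM in KO tumours, 7.79 to 27.2 CPM in WT tumours, 9.61 to 10.3 CPM in KO liver and 4.6 to 6.78 CPM in WT liver. Of these, 1 was at 0 in all KO tumours, 2 in all WT tumours, 5 in KO liver and 5 in WT liver, and the NK cell marker Ncr1 had no count in any library. The 8 dendritic cell markers summed to 19.3 to 29.6 CPM in KO tumours, 13.2 to 26.1 CPM in WT tumours, 19.3 to 27.9 CPM in KO liver and 10.3 to 18 CPM in WT liver, with 1, 0, 3 and 1 of them at 0 in those groups. Of these, 1 was called between WT tumours and WT liver, Itgax, which was higher (log2 6.18, adjusted p = 0.012).

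Markers of further cell types differed between WT tumours and WT liver as well. The 6 cholangiocyte markers summed to 260 to 500 CPM in WT tumours, against 89.7 to 120 CPM in WT liver, with Spp1 (log2 3.33, adjusted p = 0.024) and Tspan8 (log2 6.53, adjusted p = 0.01) called higher. The 7 neutrophil markers summed to 55.1 to 215 CPM in WT tumours, against 21.9 to 22.6 CPM in WT liver, and none of the 4 tested was called. The 4 red blood cell markers summed to 2390 to 4660 CPM in WT tumours, against 1800 to 1930 CPM in WT liver, with 2 called higher, Hbb-bs and Hbb-bt. Of the 7 hepatocyte markers, Alb and Apoa1 were higher and Cps1 lower in WT tumours, and of the 7 stellate cell markers Dcn was lower. In KO against WT tumours, 1 cholangiocyte and 1 stellate cell marker were called lower, against 1.27% of all genes. The cholangiocyte markers summed to 52.1 to 279 CPM in KO tumours. The stellate cell markers summed to 278 to 466 CPM in KO and 227 to 492 CPM in WT tumours. Values of these without KO tumour library 2 are not given here. The part of these cells in the levels of the 41 genes was not tested, and in such bulk tissue fewer cells of a type and less RNA per cell cannot be told apart.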

How the data were processed

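RNA of 10 mouse liver or liver tumour samples was sequenced from the 3′ end of transcripts, per the labels' protocols with a strand-specific kit from 50 ng of total RNA. The authors deposited raw read counts, a whole number for each gene and library. BWA, featureCounts and the mm10 build are named in the submitters' processing notes. Which versions, gene annotation and strand setting were used, and how multiply matching reads were counted, is not stated in any source used here. The design text calls the replicates biological and names no animals.

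Symbols were matched by gene identifier (38872 of 39056). Positions are those of GENCODE M21. The test was edgeR's quasi-likelihood F test (edgeR 4.0.16, R 4.3.3) on the 15811 genes kept by filterByExpr, with TMM scaling and a single fit of the 4 group means to all 10 libraries (residual degrees of freedom 6, prior 8.78). The 4 comparisons of groups and the interaction each had p-values adjusted by Benjamini-Hochberg over all genes, with calls at 0.05. Fold bounds for groups without counts took 3 counts per library as the limit, which covers counting error only. The members, the other lists and the rule for naming genes were chosen with earlier results of these data known. By that rule, library values are given for called genes, for the most abundant gene and the gene with the smallest p in each role, and for Irf1, Irf7, Irf9, Stat2, Isg15, Ifit1, Ifi44 and Gbp2. From the other lists it names called genes, and a further gene under that rule is not reported here. A few further genes, such as Mx1, Tgtp1 and Ifi47, are named after their values were seen. Alternatives were DESeq2 1.42.0, DESeq2 size factors, library totals, no filter, the compared groups alone, a replicate block, and leaving out each library. Promoter windows come from RefSeq, build GRCm38.p6.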

Additional observations from a re-analysis of the deposited data

How the results depend on the processing

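Of 158 recomputed counts of called genes, 135 equalled the reported count or stayed within 1.5 times it, and 23 did not. Most of the reported counts were 0, and a 0 that stays 0 says little about stability. The count of 6 genes higher in WT tumours against WT liver ran from 3 to 9 over the alternatives. That of 1 gene lower in KO against WT tumours ran from 0 to 3. Leaving out each library in turn gave 3 to 7 genes higher and 0 to 1 lower in WT tumours against WT liver. It gave 0 to 1 higher in KO tumours against KO liver, 0 to 1 higher and 0 to 1 lower in KO against WT tumours, and 0 to 2 lower in the interaction. Without the filter on low counts, 4 genes were higher in KO tumours against KO liver (Oas1a, Isg15, Gbp6 and Ifi27; 342 of 21045 genes in all), 1 was higher in KO against WT liver (Ifi44; 39 in all), 3 were lower in KO against WT tumours (Oas1a, Ifi27 and Ifi44; 435 in all) and 1 was lower in the interaction (Ifi44; 203 in all). DESeq2 gave 2 higher in KO tumours against KO liver, 2 lower in KO against WT tumours and 2 lower in the interaction. Fitting only the groups compared left 0 genes lower in KO against WT tumours, against 1.72% of all genes. A replicate block likewise left 0 lower there (Ifi27, adjusted p = 0.075), against 1.2% of all genes. The block left 5 higher in WT tumours against WT liver, without Oas1a (0.087), against 2.88% of all genes. The replicate numbers share nothing stated in the labels, and same-numbered libraries did not deviate together (correlations of −0.006 to 0.024 over 15811 genes). The causes of these shifts were not tested. Of the single genes named, 236 of 288 recomputed calls stayed, 52 were lost and none reversed. Among results that were not called, 26 became calls, and 2 of Ifit2 turned without WT liver library 2, the only liver library with reads of it: the log2 fold change of KO against WT liver became 0 and the interaction −1.3 (both adjusted p = 1), while over all leave-one-out fits they ran from −8.59 to 0 and from −1.3 to 7.29.

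The groups held 2 and 3 libraries, the biological coefficient of variation was 71.8%, and 17 of the 41 genes averaged under 10 CPM, with Oas1a and Gbp3 among them. A gene that did not pass is not shown to be equal between groups. Scaling by library totals instead of TMM raised the median difference between WT tumours and WT liver over all genes, not only over the genes of the interferon response.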
